A study of Mus musculus with 10 samples.

Results

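The potassium channel genes of the mouse were described in polyA RNA of the lumbar spinal cord. They were taken by symbol, as protein-coding mouse genes whose name starts with Kcn followed by lower-case letters and a number, which covers pore-forming and auxiliary subunits. The count table of 22024 genes held 93 of them, and 81 reached 10 or more counts in at least 2 libraries. All 81 were among the 15191 genes that entered the test of genotypes. The libraries came from female mice aged 3 months, 1 animal each. M337V mice (n = 5, animals 1, 2, 3, 7 and 9) carried human TARDBP with the M337V mutation, which is linked to amyotrophic lateral sclerosis (ALS), on a bacterial artificial chromosome exchanged into the Rosa26 locus. WT mice (n = 2, animals 8 and 10) carried the same construct without the mutation, and NTg mice (n = 3, animals 4, 5 and 6) were nontransgenic. All groups kept their own mouse Tardbp. Founders derived from embryonic stem cells were bred to C57BL/6J for at least 3 generations, and controls were littermates. The labels used here do not say whether an animal was heterozygous or homozygous, or how many stem cell clones founded a line. That each library is 1 animal is read from the labels, which give no batch, litter or day.

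Potassium channels let potassium leave the cell, or in inward rectifiers enter it more easily than it leaves, and so set the resting potential, shorten action potentials and limit repeated firing. The pore is built from subunits of several families: voltage-gated (Kv) subunits, inward rectifiers (Kir), leak channels of the two-pore domain type (K2P) and channels opened by calcium or sodium. Auxiliary subunits (Kv beta, KChIP, KCNE and BK beta) alter trafficking and gating. In the spinal cord fast Kv channels support the firing of motor neurons and interneurons, Kv subunits beside the nodes of Ranvier lie under the myelin, and glial Kir channels take up potassium released by firing axons.

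Library totals ran from 18724888 to 21041474 counts. The library labelled NTg animal 4 went against its label: it held 118 CPM of human TARDBP (CPM, counts in 1e6 after TMM scaling), within the 114 to 141 CPM of the 7 transgenic libraries, against 0.0493 and 0.186 CPM in NTg 5 and 6. It kept its label. The called genes, the counts and medians over the members, and the marker and partner calls set against NTg are also given without it. WT 8 stood apart in caudal Hox genes, with a summed 12.6 CPM over the 11 listed, against 219 CPM in WT 10, 38.8 to 166 CPM in M337V (38.8 in M337V 3) and 174 to 224 CPM in NTg. Schwann cell markers summed to 2332 CPM in M337V 3 and 2751 CPM in NTg 4, against 937 to 1498 CPM in the other libraries. The tissue markers were present: 13 of 13 neuron markers and 9 of 9 astrocyte markers were measured, and the summed markers of skeletal muscle ran from 15.2 CPM in WT 10 to 948 CPM in NTg 6. In bulk tissue fewer cells of a type and less RNA per cell cannot be told apart.

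In all, 6 genes passed the threshold in a comparison against NTg: Kcnc4 in M337V, and Kcng2, Kcnk2, Kcnip1, Kcnip2 and Kcnj16 in WT. The RefSeq promoters of 3 of them are shown. Kcnc4 is the gene called for M337V, Kcnip2 had the second largest fall among the genes called in WT, and Kcnj16 is the gene that rose. The promoter of Kcng2, which had the largest fall, is not shown. Each line gives the 250 bases before the first listed start, on GRCm38.p6 and read 5′ to 3′ on the gene's strand, with GC boxes (GGGCGG or its reverse complement CCGCCC) in capitals.
Kcnc4, chr3:107458899-107459148, minus strand: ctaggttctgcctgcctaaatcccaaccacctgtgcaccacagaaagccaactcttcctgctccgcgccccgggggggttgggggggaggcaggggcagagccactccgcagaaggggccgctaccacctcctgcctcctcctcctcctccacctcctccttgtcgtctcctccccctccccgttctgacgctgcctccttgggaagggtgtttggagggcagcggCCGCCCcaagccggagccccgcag
Kcnip2, chr19:45816064-45816313, minus strand: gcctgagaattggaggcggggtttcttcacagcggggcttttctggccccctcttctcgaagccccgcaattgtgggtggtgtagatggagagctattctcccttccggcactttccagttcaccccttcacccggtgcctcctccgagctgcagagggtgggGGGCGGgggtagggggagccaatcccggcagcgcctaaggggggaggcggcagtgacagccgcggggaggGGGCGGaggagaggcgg
Kcnj16, chr11:110967783-110968032, plus strand: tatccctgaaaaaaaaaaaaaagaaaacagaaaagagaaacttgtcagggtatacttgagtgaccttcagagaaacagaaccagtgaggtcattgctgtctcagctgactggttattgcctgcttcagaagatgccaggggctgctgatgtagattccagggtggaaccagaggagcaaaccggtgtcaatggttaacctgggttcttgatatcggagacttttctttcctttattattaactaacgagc
The windows of Kcnc4 and Kcnip2 held GC boxes and 12 and 15 CpG dinucleotides. The Kcnj16 window held no GC box and 3 CpG dinucleotides. A GC box stood in 30 of the 58 potassium channel promoters in the table (51.7%) and in 32.9% of all 27025 promoters of the same length. The motif TATAAA, on either strand, stood in 2 of the 58 (3.45%) and in 13% of all. The 58 belong to genes past the count rule, while the 27025 were not limited to genes expressed here, so these sets are unlike. Kcnj16, Kcnip1 and Kcnk2 have further listed starts, and the counts do not tell which start was used.

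The members differed from all tested genes more in span than in exon length. Their median span was 42208 bases (quartiles 10658 and 162176), against 25043 bases (10487 and 61737) over the 15149 tested genes with an annotation. The median exon length was 4587 bases, against 4431 bases over those genes, and the median GC content of the longest transcript was 51.8%, against 49.9%. Kcnip4, a KChIP gene, spanned 1135406 bases, while Kcna3 spanned 1902 bases. Several members lie side by side on GRCm38 and were counted as separate genes. Kcnj9 and Kcnj10 are 11891 bases apart on chromosome 1, Kcnj16 and Kcnj2 38195 bases apart on chromosome 11, and Kcna1 and Kcna6 61944 bases apart on chromosome 6. Kcnmb1 lies inside the span of Kcnip1.

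The 12 genes below the count rule were Kcna10, Kcne1, Kcne2, Kcne3, Kcnj1, Kcnj4, Kcnk7, Kcnk15, Kcnk16, Kcnk18, Kcnmb3 and Kcnv2. Kcnk18 and Kcnmb3 stood at 0 counts in every one of the 10 libraries. By counting error alone, a count of 0 in 1 library allows a true level of up to 3 counts there. With 0 counts in every library, the level allowed per library is lower than that. Just outside the rule lay Kcnj4 and Kcnk7, with 10 or more counts in 1 library each and at most 11 and 10 counts. Just inside lay Kcnj15 (1 to 22 counts) and Kcnq1 (4 to 14 counts), each at 10 or more counts in 2 libraries. Of the 81 members, 72 had 10 or more counts in every library.

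Levels differed widely between members. They are given here as mean CPM per kb of exon over the 10 libraries, so that genes of different length can be compared. The highest was Kcnj10, which encodes a Kir subunit of astrocytes and oligodendrocytes, with 246 CPM per kb. It ranged from 215 to 294 CPM per kb, and its lowest library lay above the highest of every other member. Kcna1, a Kv1 subunit found beside the nodes of myelinated axons, followed with 147 CPM per kb (124 to 165). The lowest library of Kcna1 lay above the highest of every member other than Kcnj10. Kcnab2, the most abundant Kv beta subunit gene, had 89.7 CPM per kb (84.8 to 103). The highest K2P gene was Kcnk1, with 43.8 CPM per kb. In CPM, without regard to length, 5 genes held 55.5% of the reads of the 81 members, and Kcnj10 alone held 21.4%. The mean was at least 100 CPM for 14 members, 10 to 100 CPM for 37, 1 to 10 CPM for 21 and under 1 CPM for 9.

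**Figure D1:**
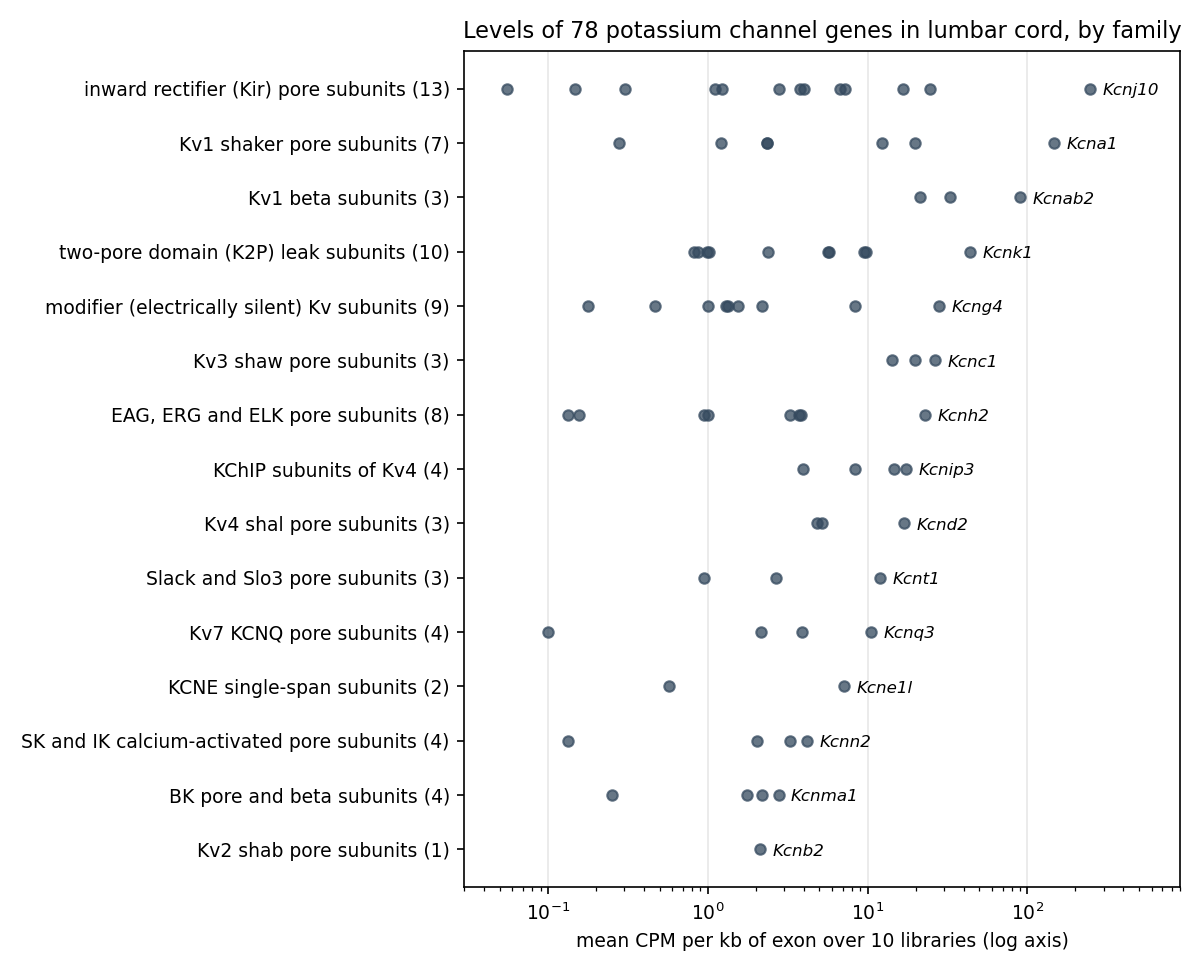
Mean CPM per kb of exon over the 10 libraries (horizontal log axis) for 78 potassium channel genes, 1 point per gene, in rows by family with the number of genes plotted in brackets; the highest plotted gene of each row is named. Kcnj10 (246 CPM per kb) and Kcna1 (147) lie above 100 CPM per kb, and Kcnb2 lies at 2.12.

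Within families levels differed as well, again in mean CPM per kb. Among voltage-gated pore genes, Kv1 was led by Kcna1, then Kcna6 (19.7) and Kcna2 (12.3). Of the Kv3 genes, Kcnc1 stood at 26.5, Kcnc4 at 19.9 and Kcnc2 at 14.2. Kv4, which carries fast inactivating current in dendrites, was led by Kcnd2 (16.9), with Kcnd3 at 5.19. The Kv2 gene Kcnb2 stood at 2.12. Of the Kv7 genes, whose channels carry the M-current that restrains repeated firing, Kcnq3 stood at 10.6 and Kcnq5 at 2.15. Kcnh2, an ERG channel gene, led its family at 22.9. Among modifier subunits, which form no channel alone but join Kv2 subunits, Kcng4 stood at 28.02.

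The auxiliary genes Kcnab3 (32.7) and Kcnab1 (21.3), of the Kv beta family, were also among the 12 highest members per kb. The KChIP genes, calcium-binding partners of Kv4, were led by Kcnip3 (17.3). Of the glial and vascular members, Kcnj16, which joins Kcnj10 in glial channels, stood at 24.5. Kcnk13, a leak channel of microglia, stood at 9.56, and Kcnj8, a pericyte and smooth muscle subunit of ATP-sensitive channels, at 1.23. The calcium-activated genes were low per kb, with Kcnn2 at 4.18, Kcnn3 at 2.04, Kcnma1, the BK pore, at 2.77 and its beta partner Kcnmb4 at 2.17. The sodium-activated Slack gene Kcnt1 stood at 11.9 and Kcnt2 at 2.69. Kcne1l, the highest KCNE gene, stood at 7.10.

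Summed over the 81 members, expression was 5885, 5894, 6093, 6376 and 6213 CPM in M337V 1, 2, 3, 7 and 9, 6659 and 6455 CPM in WT 8 and 10, and 6067, 6117 and 6259 CPM in NTg 4, 5 and 6. Both WT libraries lay above all others, and M337V and NTg overlapped. Kcnj10 alone added 1539 and 1592 CPM in WT, against 1161 to 1283 CPM in NTg. The spread within groups differed between genes. The SD between libraries of a group, on log2 (CPM + 0.1), was 0.05 for Kcnh2, 0.07 for Kcna6, 0.16 for Kcnt1, 0.17 for Kcnq3 and 0.18 for Kcng4, and among genes of at least 1 CPM it was largest for Kcnmb1 (0.36), a smooth muscle BK subunit, Kcng1 (0.35), a modifier subunit, and Kcnk5 (0.33), a leak channel.

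M337V was set against NTg to ask what carrying mutant human TARDBP does to these genes; NTg 4 was kept in its labelled group. Of the 81 genes 1 fell and 0 rose at an adjusted p below 0.05 (edgeR's quasi-likelihood test, Benjamini-Hochberg over all genes). That was 1.23% of the members, against 4.29% of all genes tested (2.67% higher and 1.61% lower). The median log2 difference of the members was -0.05 and that of all genes -0.01, and 79 of the 81 differed by less than 1.5-fold. M337V and NTg libraries did not overlap for 13 members, 6 higher and 7 lower in M337V, or 16%, against 18.1% of all genes (9.51% higher and 8.61% lower). At an unadjusted p below 0.05 there were 17 members, or 21%, against 24.5%. These shares lay near or under those of all genes. Without NTg 4, 0 members passed, against 1.3% of all genes, and the median was -0.02. In that setting 23 members did not overlap, or 28.4%, against 27.1% of all genes.

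Kcnc4, a Kv3 subunit that inactivates quickly and sharpens action potentials at nerve terminals, was the gene that fell. It had 71.0, 65.5, 60.0, 66.4 and 71.9 CPM in M337V 1, 2, 3, 7 and 9, against 90.0, 77.7 and 85.6 CPM in NTg 4, 5 and 6. Every M337V library lay below every NTg library. The log2 difference was -0.33 ± 0.07 (SE, adjusted p = 0.0275). The WT libraries, at 71.2 and 68.8 CPM, also lay below NTg, and their difference of -0.27 ± 0.08 missed the threshold (adjusted p = 0.0782). The call of Kcnc4 in M337V ended without M337V 2 (adjusted p = 0.0713), M337V 3 (0.0510), NTg 4 (0.0827), NTg 6 (0.151), both NTg 4 and WT 8 (0.0772) or M337V 1 to 3 (0.235). With offsets for GC content and gene length it was -0.18 (adjusted p = 0.0957). Of other Kv3 genes, Kcnc1 had a log2 difference of -0.14 (adjusted p = 0.219) and Kcnc2 of 0.09 (0.367).

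**Figure D2:**
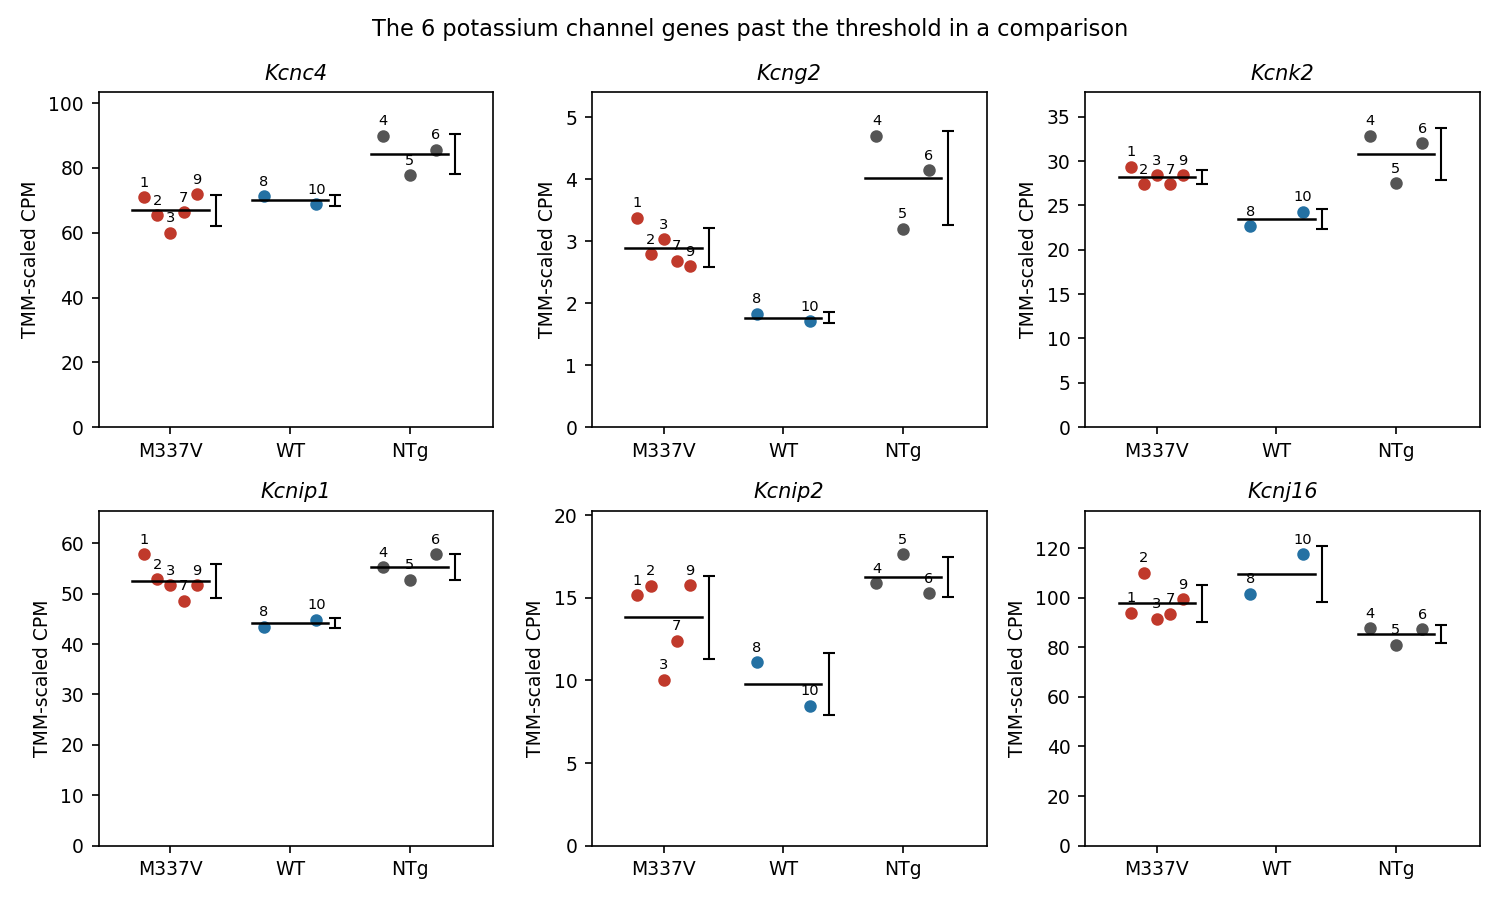
TMM-scaled CPM (vertical axes, from 0) of the 6 genes past the threshold in a comparison, 1 point per library with its animal number; lines are group means and bars 1 SD (n = 5 M337V, 2 WT, 3 NTg). Both WT libraries lie below all 3 NTg libraries for Kcnc4, Kcng2, Kcnk2, Kcnip1 and Kcnip2 and above them for Kcnj16.

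Other members with a small p in M337V did not pass. Kcnh7, an ERG channel gene of neurons, had 52.6 ± 1.62 CPM in the 5 M337V libraries and 44.7 ± 4.22 CPM in the 3 NTg libraries (± is SD), and the log2 difference was 0.24 ± 0.06 (adjusted p = 0.0542). It passed under 7 of 21 alternatives, with adjusted p from 0.0138 to 0.283. Part of its exons (696 bases) overlaps the gene Gca on the opposite strand, and whether counting used strand is not given in the sources used here. Kcnj3, a subunit of G protein-gated channels, had a log2 difference of 0.18 ± 0.06 (adjusted p = 0.0834) and passed with DESeq2 (adjusted p = 0.0339). Over 1621 bases its exons overlap the gene Gm26794 on the opposite strand. Without NTg 4, Kcnh7, Kcnj3 and Kcns1 did not pass. Kcns1, a modifier subunit of sensory and motor neurons, had 0.55 ± 0.18 (adjusted p = 0.0983) and passed with the GC and length offsets (0.71, adjusted p = 0.0478), where it was the one member called. Kcnj16 had 0.20 ± 0.07 (adjusted p = 0.115). On the lower side Kcng2 had -0.47 ± 0.16 (adjusted p = 0.105). Kcnv1, a modifier subunit, had 0.48 ± 0.18 (adjusted p = 0.125).

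The largest difference of any member in size was that of Kcna7, a Kv1 subunit of skeletal muscle, at -2.57 ± 0.87 (adjusted p = 0.101). It had 0.154, 0.215, 0.366, 0.103 and 0.0520 CPM in M337V 1, 2, 3, 7 and 9, 1.94 and 0.0487 CPM in WT 8 and 10, and 0.245, 1.13 and 1.86 CPM in NTg 4, 5 and 6. Only WT 8, NTg 5 and NTg 6 had more than 1 CPM. The summed skeletal muscle markers were 22.6 to 148 CPM in M337V, 515 and 15.2 CPM in WT 8 and 10, and 134, 598 and 948 CPM in NTg 4, 5 and 6, so the same 3 libraries were high. All 8 muscle markers were measured and none was at 0 in all libraries; 2 were lower in M337V at an adjusted p below 0.05 (0 without NTg 4), and their part in the level of Kcna7 was not tested. Kcna7 passed without WT 8 (adjusted p = 0.0427), without WT 10 (0.0416), without both NTg 4 and WT 8 (0.0135) and with DESeq2 (0.0440).

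**Figure D3:**
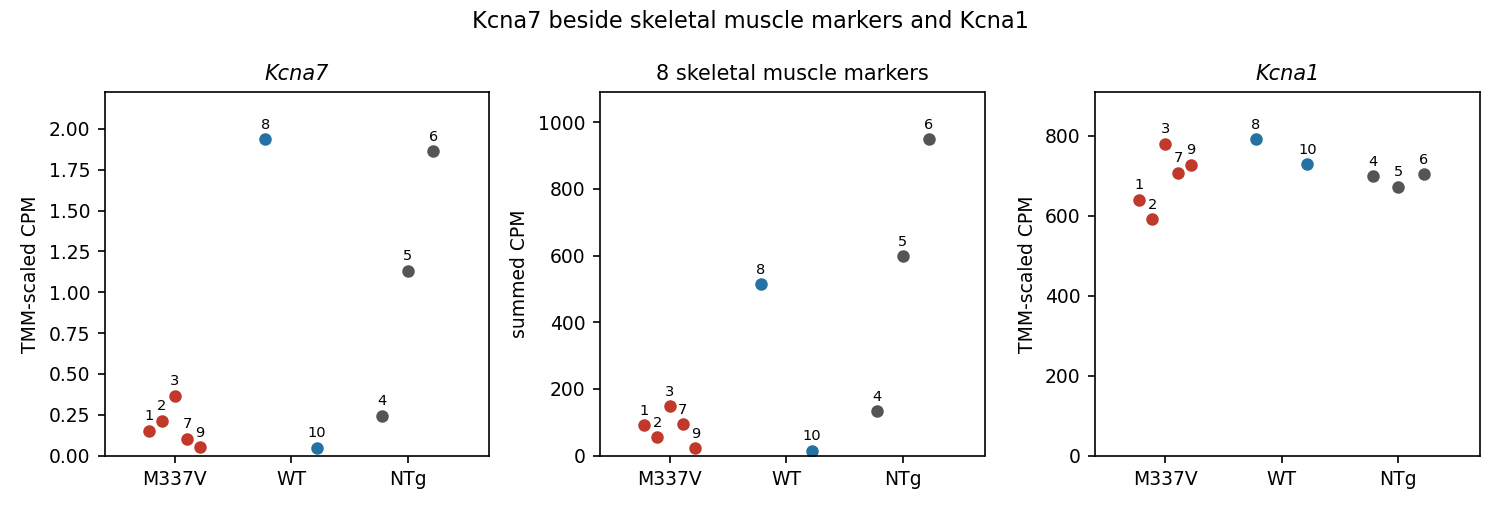
TMM-scaled CPM of Kcna7 (left), summed CPM of 8 skeletal muscle markers (middle) and TMM-scaled CPM of Kcna1 (right), 1 point per library with its animal number, all axes from 0. WT 8, NTg 5 and NTg 6 are high for Kcna7 and for the muscle markers, and for Kcna1 the groups overlap.

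Other genes with a known place in motor neurons and axons did not pass in M337V. Kcna1 averaged 688 ± 74.2 CPM over the 5 M337V libraries and 691 ± 16.3 CPM over the 3 NTg libraries (± is SD). Kcna6 averaged 117 ± 6.35 and 117 ± 4.65 CPM in M337V and NTg, and 2355 bases of its exons overlap the gene Gm26673 on the opposite strand. Kcnt1 averaged 109 ± 11.8 CPM in M337V and 131 ± 11.6 CPM in NTg (-0.26, adjusted p = 0.128), with overlap. Kcnd2 averaged 88.4 ± 6.40 CPM in M337V and 86.1 ± 0.385 CPM in NTg, and Kcnd3 averaged 48.1 ± 3.44 CPM in M337V and 54.8 ± 5.42 CPM in NTg. For Kcna1, Kcna6 and Kcnd2 the M337V and NTg libraries overlapped, and for Kcnd3 all M337V libraries lay below NTg (-0.19, adjusted p = 0.258). The summed markers of neurons were 9206 to 11072 CPM in M337V and 9368 to 10446 CPM in NTg, and 0 of 13 passed. The 7 motor neuron markers varied more. Their sums were 217 to 381 CPM in M337V, 342 and 366 CPM in WT 8 and 10, and 258 to 290 CPM in NTg. Of the 7, 1 fell in M337V (0 without NTg 4) and 0 passed in WT. The part of these markers in the levels of the channel genes was not tested.

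WT was set against the same NTg libraries for the effect of the normal human gene. Of the 81 members 1 rose and 4 fell, or 6.17%, against 5.64% of all genes (3.59% higher and 2.05% lower). The median log2 difference was -0.08, against -0.02 for all genes. WT and NTg libraries did not overlap for 35 members, 14 higher and 21 lower in WT, or 43.2%, against 41.7% of all genes (19.6% higher and 22.1% lower). At an unadjusted p below 0.05 there were 25 members, or 30.9%, against 25.3% of all genes. The called and non-overlapping shares in either direction lay near those of all genes, while 4 of 81 fell, against 2.05% of all genes. Without NTg 4 the median was -0.02, and 43 members did not overlap, or 53.1%, against 52% of all genes. The called count was then 1 (Kcng2), or 1.27%, against 1.87% of all genes. Without NTg 6 the called count was 0, against 0.291% of all genes. Fits without WT 8 or WT 10 leave 1 WT library, so their called counts are left out.

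Both KChIP genes that passed encode calcium-binding subunits that raise the surface level of Kv4 channels and slow their inactivation. Kcnip1 had 43.4 and 44.8 CPM in WT 8 and 10, against 55.3, 52.8 and 57.8 CPM in NTg 4, 5 and 6, a log2 difference of -0.33 ± 0.08 (adjusted p = 0.0334). Kcnip2 had 11.1 and 8.48 CPM in WT 8 and 10, against 15.9, 17.6 and 15.3 CPM in NTg 4, 5 and 6 (-0.73 ± 0.19, adjusted p = 0.0448). The WT libraries lay below NTg for both genes. In M337V, Kcnip1 (48.6 to 57.8 CPM) and Kcnip2 (10.0 to 15.8 CPM) had differences from NTg of -0.07 (adjusted p = 0.481) and -0.24 (adjusted p = 0.346). M337V 3 held the lowest Kcnip2 of its group. The pore genes they join did not pass in WT: Kcnd2 averaged 84.8 ± 1.42 CPM in WT (SD, n = 2) and 86.1 ± 0.385 CPM in NTg (SD, n = 3), and Kcnd3 averaged 46.2 ± 9.43 CPM in WT and 54.8 ± 5.42 CPM in NTg. The call of Kcnip1 ended without WT 8 (adjusted p = 0.103), WT 10 (0.0990), NTg 4 (0.0808) or NTg 6 (0.104) and with the GC and length offsets (0.0632). That of Kcnip2 ended without any single library except M337V 3, with adjusted p = 0.0868 without NTg 4 and 0.221 without WT 10.

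Kcng2, a modifier subunit of Kv2 channels, had 1.83 and 1.71 CPM in WT 8 and 10, against 4.70, 3.20 and 4.14 CPM in NTg 4, 5 and 6. That was the largest fall among called members (-1.18 ± 0.22, adjusted p = 0.0180), at a low level, and the groups did not overlap. The M337V libraries, at 2.599 to 3.38 CPM, all lay above WT, and M337V 1 also lay above NTg 5. Kcng2 kept its call without NTg 4 (adjusted p = 0.0481) and with the GC and length offsets (0.0206), and lost it without WT 8 (0.0561), WT 10 (0.0744) or NTg 6 (0.0684). Its exons overlap the gene D330025C20Rik on the opposite strand over 272 bases. Kcnk2, a leak channel opened by stretch and lipids, had 22.7 and 24.3 CPM in WT 8 and 10, against 32.9, 27.5 and 32.03 CPM in NTg 4, 5 and 6 (-0.39 ± 0.08, adjusted p = 0.0266). An antisense gene overlaps 604 bases of its exons. It lost its call without NTg 4 (0.0792), NTg 6 (0.0925), WT 8 (0.0956), WT 10 (0.0658) and with the offsets (0.0741).

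The gene that rose in WT was Kcnj16, of the glial Kir family. It had 102 and 117 CPM in WT 8 and 10, against 87.6, 80.9 and 87.2 CPM in NTg 4, 5 and 6, a log2 difference of 0.36 ± 0.09 (adjusted p = 0.0355). Its partner Kcnj10 had 1539 and 1592 CPM in WT 8 and 10, against 1161, 1283 and 1176 CPM in NTg 4, 5 and 6 (0.38 ± 0.10, adjusted p = 0.0529). Kcnk1, a leak channel, had 108 and 119.6 CPM in WT 8 and 10, against 93.3, 84.6 and 87.7 CPM in NTg 4, 5 and 6 (0.36 ± 0.10, adjusted p = 0.0513). For all 3 genes the WT libraries lay above NTg. In M337V, Kcnj16 was at 91.5 to 110 CPM, above every NTg library, while Kcnj10 (1163 to 1503 CPM) and Kcnk1 (87.0 to 111 CPM) overlapped with NTg.

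Summed glial markers are given beside these genes. The summed astrocyte markers were 7272 to 9408 CPM in M337V, 8405 and 9049 CPM in WT, and 7141 to 7702 CPM in NTg; 1 of 9 rose in each transgenic group, and 0 without NTg 4. The summed oligodendrocyte markers were 31242.5 to 38606 CPM in M337V, 33980 and 37882 CPM in WT, and 23222 to 27657.5 CPM in NTg, and 7 of 11 rose in each. Without NTg 4, 4 of 11 rose in M337V and 3 of 11 in WT. Within M337V, Kcnk1 was highest in M337V 3 (111 CPM), the library with the lowest astrocyte sum of that group (7272 CPM). The same library had the highest motor neuron sum (381 CPM). None of the glial markers was at 0, and the part of any markers in the levels of Kcnj10, Kcnj16 and Kcnk1 was not tested. Without NTg 4, WT against NTg gave 0.39 for Kcnj16 (adjusted p = 0.0665), without NTg 5 0.33 (0.0795), without NTg 6 0.38 (0.0925) and without WT 10 0.25 (0.201). Without NTg 4, Kcnj10 had 0.36 (adjusted p = 0.123) and Kcnk1 0.41 (0.0749). Kcnj10 passed under 9 and Kcnk1 under 8 of 21 alternatives.

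**Figure D4:**
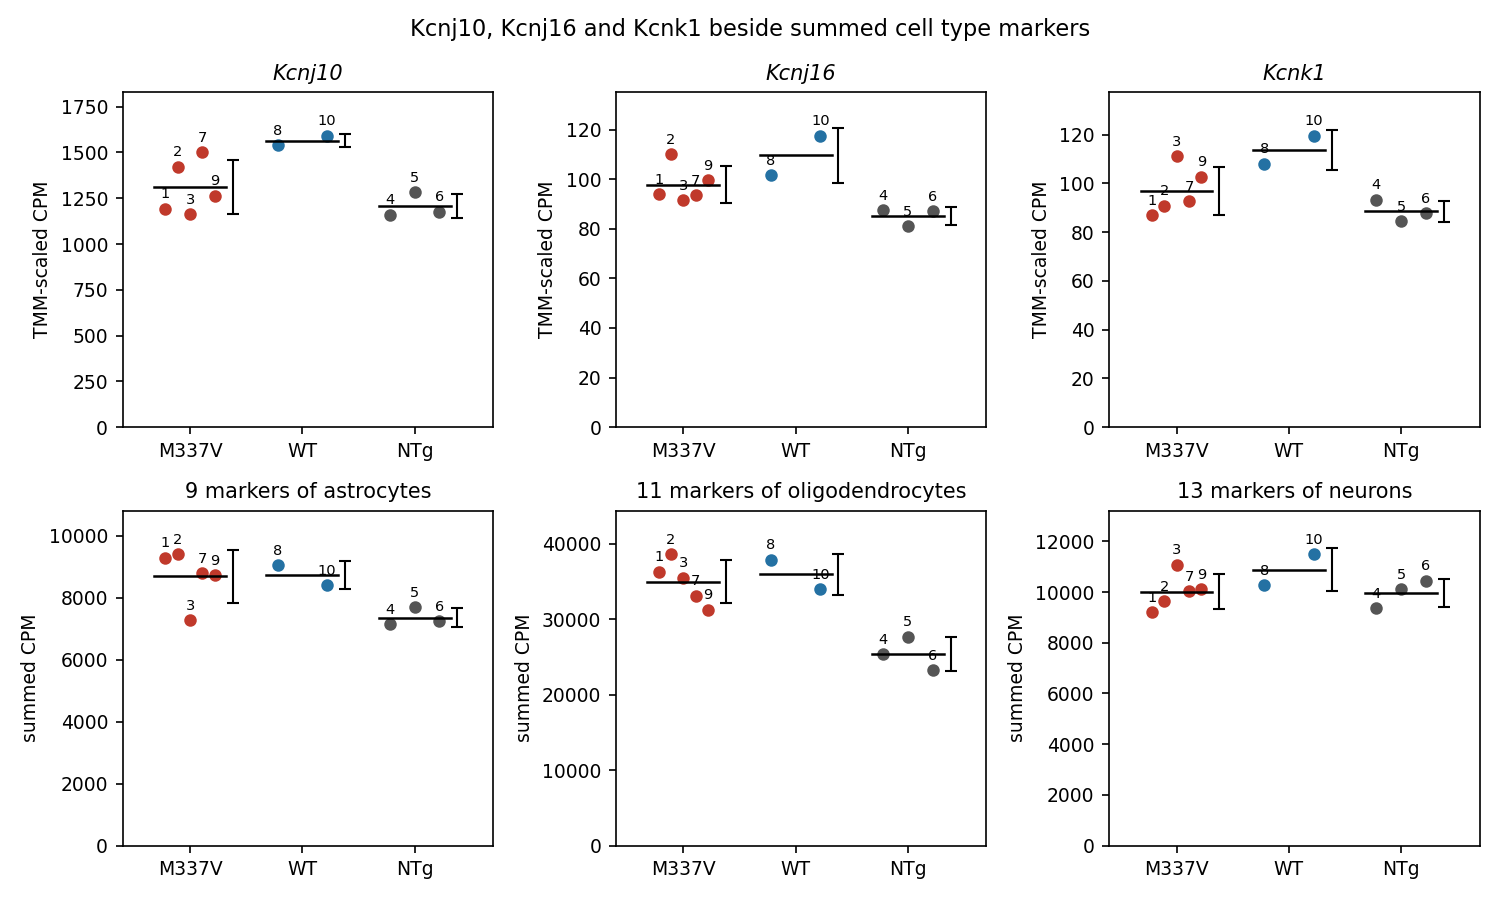
Upper row, TMM-scaled CPM of Kcnj10, Kcnj16 and Kcnk1; lower row, summed CPM of markers of astrocytes, oligodendrocytes and neurons; 1 point per library with its animal number, all axes from 0, lines are group means and bars 1 SD (n = 5 M337V, 2 WT, 3 NTg). WT libraries lie above NTg for the 3 channel genes and for both glial sums, and the neuron sums overlap.

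Other members at the edge of this comparison were Kcnf1, a modifier subunit (-0.62 ± 0.21, adjusted p = 0.0933), Kcnh7 (0.22 ± 0.08, adjusted p = 0.102) and Kcnt1, with 97.0 ± 15.7 CPM in WT (SD, n = 2) and 131 ± 11.6 CPM in NTg (-0.43 ± 0.12, adjusted p = 0.0608). The microglial leak channel Kcnk13 averaged 33.7 ± 6.12 CPM in WT and 25.3 ± 4.62 CPM in NTg, beside summed microglia markers of 450 and 480 CPM in WT and 358 to 429 CPM in NTg (adjusted p = 0.102 for Kcnk13). Kcnj8 averaged 3.21 ± 0.484 CPM in M337V mice and 2.49 ± 0.625 CPM in WT mice, against 3.48 ± 0.502 CPM in NTg mice, beside summed pericyte and smooth muscle markers of 223 to 297 CPM in M337V mice, 195 and 218 CPM in WT mice, and 258 to 341 CPM in NTg mice. Rgs5 alone gave 128 to 205 CPM of the pericyte and smooth muscle sums. Of 9 microglia markers, 2 rose in M337V and 1 in WT (1 in each without NTg 4). Of 8 pericyte and smooth muscle markers, 2 fell in each transgenic group (1 of 7 tested in each without NTg 4). The part of these markers in the levels of Kcnk13 and Kcnj8 was not tested. Both comparisons used the same NTg libraries, so their directions are not independent.

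M337V against WT asked what the mutation adds to the human gene. No member passed with edgeR, DESeq2 or limma-voom, and of all 15191 genes 0 (0%) passed with edgeR, 30 with DESeq2 and 0 with limma-voom. At an unadjusted p below 0.05 there were 14 members, 8 higher and 6 lower in M337V, or 17.3%, against 6.66% of all genes (3.55% higher and 3.11% lower). M337V and WT libraries did not overlap for 8 members, 6 higher and 2 lower in M337V, or 9.88%, against 9.5% of all genes (4.85% higher and 4.65% lower). The median log2 difference was -0.01, and the median SE of a member was 0.12, so that a difference of moderate size in 1 gene could be missed.

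The smallest p on the higher side belonged to Kcnip1 (0.25 ± 0.07), Kcng2 (0.71 ± 0.21), Kcnk2 (0.26 ± 0.08) and Kcnh4, an ELK channel gene (1.25 ± 0.37), each with adjusted p = 0.625. Kcnh4 was low, at 0.575 to 0.982 CPM in M337V, against 0.366 and 0.244 CPM in WT 8 and 10. On the lower side were Kcnj10 (-0.26 ± 0.09, adjusted p = 0.717), Kcna2, a Kv1 partner of Kcna1 in axons (-0.26 ± 0.10, adjusted p = 0.728), Kcnk1 (-0.23 ± 0.09, adjusted p = 0.728) and Kcnma1 (-0.18 ± 0.07, adjusted p = 0.728). Among members of at least 1 CPM the largest differences, beside Kcng2, were in Kcnmb1 (0.70, adjusted p = 0.762) and Kcna5, a Kv1 subunit of vessels (0.53, adjusted p = 0.743).

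**Figure D5:**
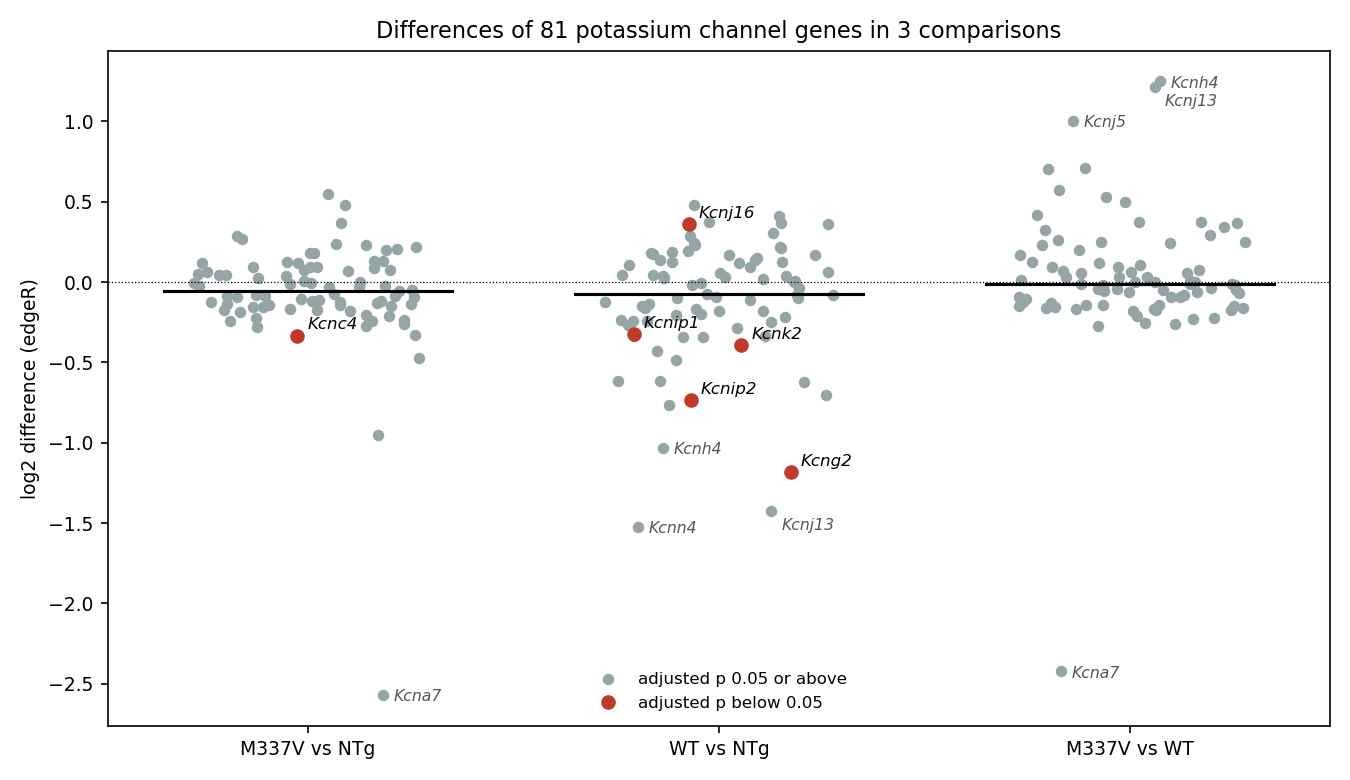
Log2 differences (vertical axis) of 81 potassium channel genes in M337V against NTg, WT against NTg and M337V against WT, 1 point per gene, spread sideways for legibility; black lines are medians, and red points passed the threshold. The red points are Kcnc4 in M337V against NTg and 5 genes in WT against NTg, and Kcna7 lies lowest in the comparisons that involve M337V.

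The called members are given by family, while 4.29% of all genes tested were called in M337V and 5.64% in WT. No family was tested as a set, and most hold too few genes to be set against these shares. The Kv1 family had 0 of 7 members past the threshold in M337V or WT, Kv7 0 of 5, the EAG, ERG and ELK family 0 of 8, and the BK and SK families 0 of 4 each. The Kv3 family had 1 of 4 (Kcnc4, in M337V), the KChIP family 2 of 4 in WT, the modifier family 1 of 9, the K2P family 1 of 10 and the Kir family 1 of 13, all in WT. Summed over the family, KChIP genes were at 176 to 205 CPM in M337V, 157 and 164 CPM in WT, and 174 to 190 CPM in NTg. The Kir sum was 1460 to 1792 CPM in M337V, 1838 and 1899 CPM in WT, and 1440 to 1547 CPM in NTg. Most of that sum was Kcnj10, with 1163 to 1503 CPM in M337V, 1539 and 1592 CPM in WT, and 1161 to 1283 CPM in NTg. In WT against NTg the log2 difference was positive for 6 of the 13 Kir genes and negative for 7.

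Of 31 listed partner genes of these channels 30 were tested, among them ATP-sensitive channel receptors, Kv4 partners of the dipeptidyl peptidase family, scaffolds and HCN channels. Dlg2, a scaffold that anchors Kv1 channels, rose in M337V (0.21 ± 0.05, adjusted p = 0.0322) and had 0.21 ± 0.06 in WT (adjusted p = 0.0517). Dlg4, a scaffold of synapses and Kv1 channels, fell in WT (-0.22 ± 0.06, adjusted p = 0.0468). Without NTg 4, Dlg2 kept its call in M337V (adjusted p = 0.0492) and Dlg4 lost its call in WT (0.111). The other 29 passed in neither direction in each of those comparisons, and 0 of 30 passed in M337V against WT. The called share of the partners was 3.33% in M337V and 3.33% in WT, against 4.29% and 5.64% of all genes. Both shares lay under those of all genes.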

How the data were processed

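PolyA RNA was sequenced in read pairs over 100 cycles from a stranded TruSeq kit, per the labels' protocols. The authors deposited raw counts of reads for each gene, as whole numbers. Among the tools in the submitters' processing notes are STAR 2.4.2a and featureCounts; which genome build and strand setting they used is not given in the sources used here. Gene names, lengths and coordinates came from GENCODE M21 (GRCm38), which named 21774 of the identifiers, and promoters from RefSeq, GRCm38.p6, for 58 of the 81 members.

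Counts were analysed in R 4.3.3 with edgeR 4.0.16: filterByExpr (minimum count 10, minimum total 15) kept 15191 genes, TMM gave the scaling factors, and 1 quasi-likelihood model was fitted on all 10 libraries with a mean per genotype. The threshold was a Benjamini-Hochberg adjusted p below 0.05 over all genes tested. Log2 differences carry their SE. Alternatives were RLE size factors, no filter, the members' count rule as filter, the compared groups alone, limma-voom (limma 3.58.1), DESeq2 1.42.0, robust dispersions, offsets for GC content and length (mgcv 1.9.3), each library left out, and 3 sets of libraries left out.

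The members, lists and rule for named genes were chosen with earlier results of these data known. Named were called members, per comparison the 4 smallest p in each direction and the 3 largest differences among members of at least 1 CPM, the 12 highest per kb and the highest of each family, the 3 most and least variable, and a set known in motor neurons, axons or glia; genes outside it, such as Kcna3 or Kcnip4, were named after their values were seen. Of these, 3 members are not reported here by name and are not drawn in the plot of levels. The fit was tested on simulated data, in which all labels held and libraries did not differ in tissue content, unlike the libraries here. It recovered 61% of 1.5-fold and 82% of 2-fold changes in M337V against NTg. The shares were 47% and 71% in WT against NTg, and 56% and 74% in M337V against WT. Floors cover counting error only.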

Additional observations from a re-analysis of the deposited data

Results flagged for a closer look

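In each of 97 sets of 5 M337V values (81 genes, 15 family sums and the sum over all members), the distance of the highest or lowest library to its nearest neighbour was set against the whole range. Chance marks about 1 in 20 such sets, and 2 were marked, both genes of very few counts. Kcng3, a modifier subunit, had 1.126 CPM in M337V 1, against 0.418 to 0.517 CPM in the other 4 M337V libraries. Kcnj15, a Kir subunit, had 1.137 CPM in M337V 7, against 0.0520 to 0.256 CPM in the others. WT and NTg, with 2 and 3 libraries, were not examined in this way.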

How the results depend on the processing

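The share of all genes that passed also changed with the setting and stands in brackets. For M337V against NTg the count of 1 potassium channel gene became 2 with RLE size factors (4.84% of all genes) or robust dispersions (5%). It was also 2 with the members' own count filter (4.75%), the compared groups alone (7.08%) and limma-voom (8.66%). Without M337V 7 and 9 it was 2 as well (7.59%). These 2 genes were 2.47% to 2.56% of the members. The count was 4, or 4.94%, with DESeq2 (9.87%), and 0 without M337V 1 to 3 (0.0198%). Leaving out 1 M337V or NTg library gave 0 for M337V 2 (0.349%), M337V 3 (1.06%), NTg 4 (1.3%) or NTg 6 (0.0132%). It gave 1 for each of the others (1.85% to 4.78%). With offsets for GC content and length the count stayed 1 (3.44%), but the gene was Kcns1 in place of Kcnc4. For WT against NTg the count of 5 became 0 in the compared groups alone (1.72% of all genes) and with limma-voom (1.42%). With DESeq2 it was 9, or 11.1%, against 11.3% of all genes. Leaving out 1 M337V or NTg library gave 0 (NTg 6, 0.291% of all genes) to 7 (M337V 3, 7.17%), with 1 for NTg 4 (1.87%). Fits that leave 1 WT library are not counted in these numbers for either comparison with NTg. With offsets for GC content and length 7 passed, or 8.64%, against 5.95% of all genes, and 2 of them were among the 5. M337V against WT gave 0 in all 21 alternatives. The cause of these changes was not tested. The 6 called genes kept their sign under all alternatives in the comparison that called them. No paired analysis was possible because the groups share no animal numbers. The WT group has 2 libraries, so a fit without 1 of them assumes that the other varies like the other groups. DESeq2 gave Kcnh4 no adjusted p in M337V against WT. Members under 1 CPM rest on few counts.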
